A study of Mus musculus with 3 samples.

Results

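Conventional dendritic cells from the pancreatic islets of NOD (non-obese diabetic) mice are described here from single-cell RNA sequencing of sorted live CD45+ cells. The mice were wild-type females of the NOD strain, which develops autoimmune diabetes spontaneously, and were 15 to 16 weeks of age. Each of the 3 libraries (replicates 1 to 3) pooled dispersed islets from 2 to 3 mice, and the libraries came from 2 independent experiments. They form 1 group, so populations were compared within libraries and no treatment was compared. The labels and methods do not say which library belongs to which experiment, and this batch could not be separated from the replicate.

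A cell was taken as a conventional dendritic cell from its raw counts of unique molecular identifiers (UMIs), each standing for 1 captured mRNA molecule. It had at least 1000 UMIs and under 10% mitochondrial UMIs, at least 2 UMIs of Flt3, Zbtb46, Xcr1, Clec9a, Cd209a and Fscn1 together, and at least 20 UMIs of H2-Aa and Cd74 together. It also had at most 2 UMIs of C1qa and C1qb, at most 1 UMI of Cd79a and no UMI of Cd3d, Cd3e, Cd3g or Siglech. This rule found 159 cells among 26947 barcodes, 85 in replicate 1, 27 in replicate 2 and 47 in replicate 3. The comparison populations were 61 macrophages (29, 8 and 24 in replicates 1, 2 and 3; at least 5 UMIs of C1qa and C1qb, with the same limits on T-cell, B-cell and plasmacytoid genes), 4206 B cells (at least 2 UMIs of Cd79a) and 17160 T cells (at least 2 UMIs of the CD3 genes).

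Conventional dendritic cells take up antigen, carry it to lymph nodes and present it to T cells on MHC molecules together with costimulatory or inhibitory ligands. They develop under FLT3 ligand and share the transcription factor ZBTB46. The cDC1 lineage carries XCR1 and CLEC9A, depends on IRF8 and BATF3 and is known for cross-presenting antigen to CD8+ T cells, while cDC2 are a more varied lineage that depends on IRF4 and presents mainly to CD4+ T cells. On maturation both switch on CCR7, the receptor that guides them to lymph nodes, and fascin (Fscn1), which bundles actin in their dendrites. In NOD islets, dendritic cells lie among T cells that recognise beta-cell antigens.

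The dendritic cells were rare and deeply sequenced. They made up 1.48% of the cells passing the filter in replicate 1 (85 of 5727 cells, exact 95% binomial interval 1.19 to 1.83%), 0.294% in replicate 2 (27 of 9199, 0.194 to 0.427%) and 0.419% in replicate 3 (47 of 11216, 0.308 to 0.557%). The interval of replicate 1 did not meet those of the other libraries. Macrophages followed the same order, at 0.506%, 0.0870% and 0.214%. These intervals cover counting error only, and a share of sorted CD45+ cells does not give a number per islet.

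The libraries held 33851381, 74775394 and 80806452 UMIs in total. A dendritic cell had a median of 11689 UMIs (range 1167 to 28803) and 2675 detected genes, against medians of 7446 UMIs in macrophages, 5586 in B cells and 5459.5 in T cells. Because the rule counts raw UMIs, a deeper cell passes it more easily, and the part of that in the depth of these cells was not tested. The study's own cell limit of fewer than 6000 UMIs would have removed 156 of the 159 cells (98.1%), compared with 65.6% of macrophages, 42.6% of B cells and 40.1% of T cells, and all its cell limits together left 2. A simulated-doublet score that marked the top 7.6% of each library marked 1 of the 159. The libraries shared 12 to 29 cell barcodes in pairs, and no barcode was a dendritic cell in more than 1 library.

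**Figure D1:**
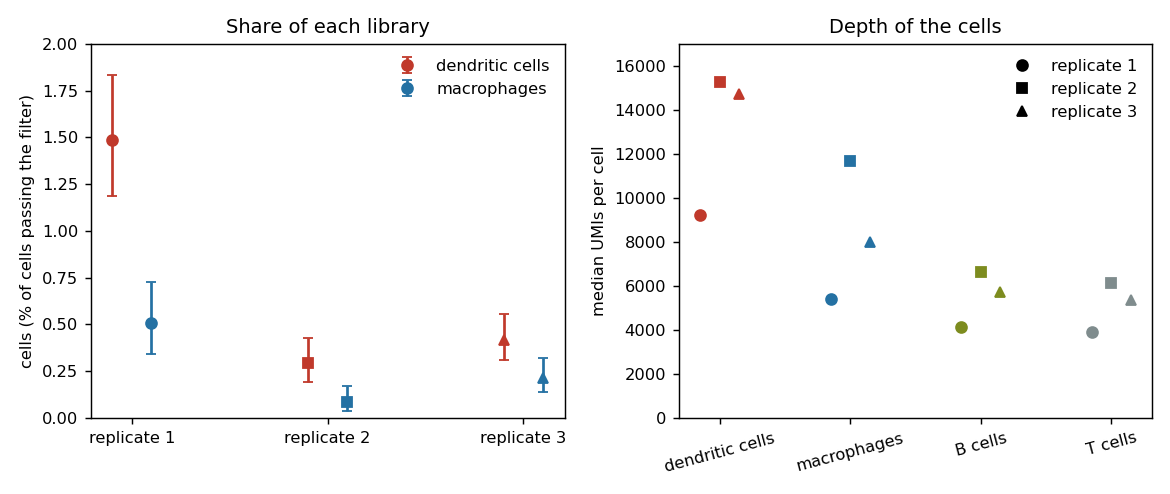
Left, the share of cells passing the filter (percent) that were dendritic cells or macrophages in each replicate, with exact 95% binomial intervals. Right, the median number of UMIs per cell of 4 populations in each replicate; dendritic cells lie highest in every replicate, at 9223, 15293 and 14746.

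The genes that chose the cells are given as a description only. Flt3, the receptor for the growth factor of the lineage, was detected in 98 of the 159 cells at 98.4, 84 and 108 CPM (UMIs of a gene scaled to a total of 1000000) in replicates 1, 2 and 3. Zbtb46 was detected in 96 cells, Fscn1 in 68, Xcr1 in 26, Clec9a in 24 and Cd209a in 18. Xcr1 was found in 20 of 85, 5 of 27 and 1 of 47 cells of replicates 1, 2 and 3, and Clec9a in 19, 3 and 2. Clec9a is not specific to the gate, as 11 of the 61 macrophages held a UMI. Ccr7 was detected in 71.7% of the dendritic cells, and in 72.5% of T cells and 78.1% of B cells, which also use this receptor, so that alone it separates dendritic cells only from macrophages (13.1%).

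Cells near the edges of the rule show how sharp each limit was. The 41 cells with a marker sum of exactly 2 had 961 CPM of Il1r2, a gene the rule did not use, against 889 in the 118 cells with a sum of 3 or more and 812 in the 79 cells left out only because their sum was 1. Lyz2, a lysozyme gene of macrophages and monocytes, stood at 375, 127 and 513 in the same order, and the B-cell gene Ms4a1 at 2.04, 0 and 39.9. The complement limit cut through a gap: 158 dendritic cells had no UMI of C1qa or C1qb, 1 had a single UMI, none had 2, and 6 cells that met every other limit had 5 or more. The marker sum limit alone kept out 222 cells, more than the 159 taken, so the number of cells depends on it. Of these, 143 had a sum of 0, with 353 CPM of Il1r2, 362 of Havcr2 and 3870 of Lyz2. The CD3 limit alone removed 123 cells and the Cd79a limit 104. Of the cells removed for CD3, 97 had 2 or more such UMIs and a median of 19334 UMIs in all, and 26 had 1 and a median of 13080. Il1r2 stood at 633 CPM in the 97 cells and at 303 in the 26. The Siglech limit removed 52 cells and the MHC limit 5.

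Genes that the rule did not use were then set against the label. Of the 12 genes in a list of general conventional dendritic cell markers, 4 served in the gate and 8 could be tested, and 6 of these were higher than in macrophages and none lower (median log2 fold change 3.04). Against B cells 5 of the 8 were higher and 1, Bcl11a, was lower, and Napsa was not among those higher. Cbfa2t3, a transcriptional corepressor of the lineage, measured 200.4, 287 and 195 CPM in the dendritic cells of replicates 1, 2 and 3 and 5.58, 21.5 and 9.5 in macrophages (log2 fold change 4.37 ± 0.48, adjusted p = 4.7e-06). Napsa, an aspartic protease, measured 913, 728 and 659 against 156, 129 and 14.2 (3.07 ± 0.36, adjusted p = 8.6e-06). Dpp4 (CD26) rose from 16.1 ± 14.4 to 105 ± 6.78 (mean ± SD, n = 3 libraries, adjusted p = 0.00014), and no library of one population overlapped the other. Itgax, which encodes CD11c, did not pass the test (156 ± 20.3 against 100.4 ± 60.6, adjusted p = 0.23). All 8 are known markers of these cells, so they bear on the name and not on a separate finding. Adjusted p-values here and below come from edgeR's quasi-likelihood test over 6766 genes with Benjamini-Hochberg adjustment, and 10.7% of those genes were called higher and 12.4% lower than in macrophages.

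Markers of macrophages, B cells and T cells were low, and the monocyte list was not, mainly through Plac8 and Ms4a4c. The macrophage list without its gate genes summed to 644 ± 34.9 CPM in dendritic cells and 17601 ± 3002 in macrophages, and all 15 of its tested genes were lower. Among the 15, C1qc is the partner gene of C1qa and C1qb, which chose both populations, so its fall adds no support. The most abundant gene of the macrophage list in dendritic cells was Lyz2, with 370 UMIs, and Mertk, Trem2, Mrc1, Cd163 and Vsig4 had none. The Lyz2 UMIs came from 36 cells, and the single highest cell held 17.3% of them. The B-cell list summed to 145 ± 52.3 against 23668 ± 9479 in B cells, with 151 UMIs of Igkc, an immunoglobulin light chain that is also found as free RNA, spread over 81 cells. The T-cell list summed to 51.7 ± 4.26 against 5107 ± 469 in T cells. All 6 neutrophil genes and all 7 mast cell and basophil genes were at 0. The monocyte list reached 919.7 ± 214, against 929 ± 537 in macrophages, 1254 ± 80.3 in B cells and 207 ± 16 in T cells. It was led by Plac8 with 1406 UMIs in 115 of the 159 cells, and Ms4a4c had 284 UMIs in 91 cells, while F13a1, Chil3 and Ace were at 0. Of its 7 tested genes none was higher than in macrophages and 3 were lower (F13a1, Fcgr4 and Ccr2). The part of monocyte RNA in the results was not tested. The plasmacytoid list summed to 389 ± 34.2, led by Bst2, against 441 ± 55.2 in macrophages and 1157 ± 449 in B cells.

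**Figure D2:**
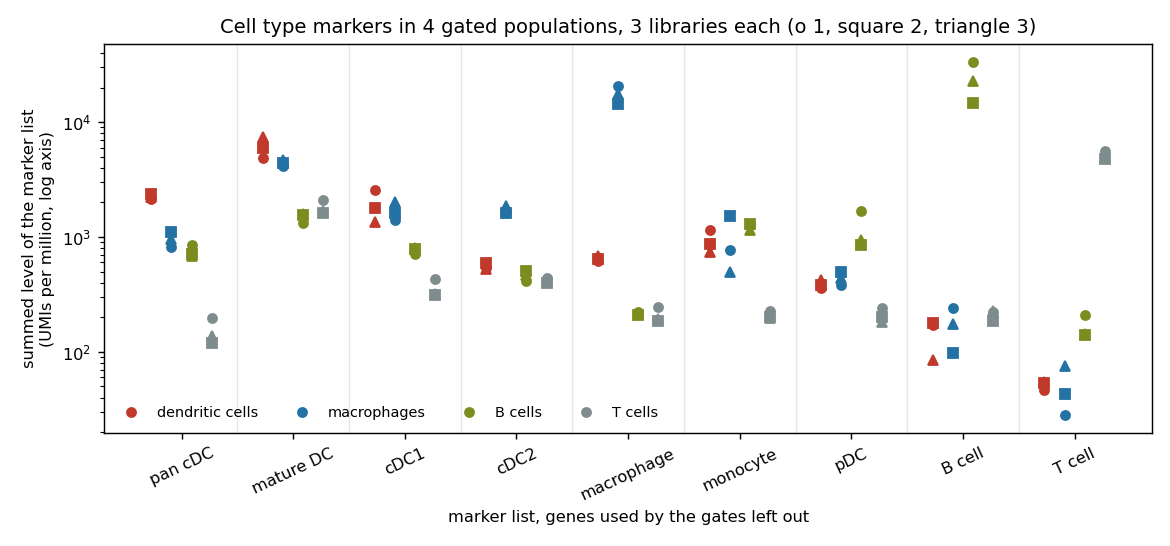
Summed level of 9 marker lists (CPM, log axis) in dendritic cells, macrophages, B cells and T cells, 1 point per library and with the gate genes left out. Dendritic cells lie highest for the general conventional dendritic cell and mature lists, and at 613, 637 and 682 for the macrophage list, where macrophages reach 14531 or more.

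Listed cDC1 and cDC2 markers went both ways against macrophages. Of 13 tested cDC1 genes, 5 were higher than in macrophages (Wdfy4, Btla, Plet1, Cd24a and Itgae) and 2 lower (Ifi205 and Rab7b). Plet1 and Itgae had no UMI in macrophages and were far lower in B cells. They entered the test through the dendritic cells alone, could only be called higher, and so say nothing on the lineage. The call was lost for Plet1 without replicate 3 (adjusted p = 0.058) and for Cd24a without replicate 1 (adjusted p = 0.091). Wdfy4, which cDC1 need for cross-presentation, measured 214, 131 and 130.1 CPM against 22.3, 0 and 9.5 (log2 fold change 3.65 ± 0.43, adjusted p = 9.6e-06). Of 12 tested cDC2 genes, 1 was higher (Ltb, 4.73 ± 0.44, adjusted p = 7.9e-07) and 6 were lower, among them Sirpa (49.8 ± 10.7 against 196 ± 30.4, adjusted p = 6.8e-05) and Zeb2 (97.9 ± 33.8 against 693 ± 112, adjusted p = 3.4e-08). Against B cells 8 of the 12 were higher, Sirpa and Zeb2 among them, and 2 lower, Irf4 among them. Zeb2 was not called there with Fscn1 left out of the marker sum (adjusted p = 0.0504). Of the 13 cDC1 genes 10 were higher than in B cells, Batf3 among them, and 1 lower (Cd24a). Over all tested genes 24.5% were higher and 20% lower than in B cells. Macrophages express several of these cDC2 genes themselves. The transcription factors that define the lineages did not pass the test against macrophages: Irf8 measured 429, 201 and 99.1 against 207, 377 and 503 (adjusted p = 0.37), Batf3 66.8, 51.3 and 25.1 against 39.1, 10.8 and 9.5 (adjusted p = 0.16) and Irf4 18.7, 25.7 and 38.4 against 16.7, 10.8 and 28.5 (adjusted p = 0.65).

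Several cDC1 genes varied between libraries. Irf8 was highest in replicate 1 and lowest in replicate 3, and Naaa, a lysosomal acid amidase of cDC1, did the same at 186, 79.3 and 5.91 CPM. Naaa was found in 39 of 85 cells in replicate 1, 7 of 27 in replicate 2 and 1 of 47 in replicate 3. The summed cDC1 list without both gate genes stood at 2582, 1801 and 1363. The summed cDC2 list stood at 533, 597 and 526. Each library is a single sample, so a difference between libraries has no replicate check.

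Against macrophages, the largest fitted rises in dendritic cells were in genes of which the macrophages had few UMIs or none. In all, 1564 of 6766 genes differed (23.1%), 723 higher and 841 lower in dendritic cells. Without replicate 3 the counts were 352 and 589, and without replicate 2, with its 8 macrophages, 523 and 789. The 10 genes with the largest fitted rise at 50 CPM or more were Adam23, Ffar2, Cacna1s, Serpinb1a, Cd7, Ifitm6, St3gal5, Ucp1, Il1r2 and Arap2. The first 8 had no UMI in any macrophage library, so their folds are given below as lower bounds, taken against 3 UMIs over the macrophage sums. Their rank above genes with a measured fold, such as Il1r2, is not established. Both populations also differed in depth, with 1958371 UMIs from dendritic cells and 482511 from macrophages, so that the bounds are limited by the macrophage sums. Of the first 8 genes, Adam23, Ffar2, Cd7, Ifitm6, St3gal5 and Ucp1 were also far lower in B cells. They entered the test through the dendritic cells alone and could only be called higher, so their adjusted p-values are no separate support.

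Il1r2 (chr1:40074079-40125231, plus strand), the decoy receptor that binds interleukin-1 without signalling, was among the 10. It measured 551, 996 and 1301 CPM in the dendritic cells of replicates 1, 2 and 3, 5.58, 21.5 and 9.5 in macrophages and 10.3, 10.2 and 13.3 in B cells. Every dendritic cell library lay above every library of the others (log2 fold change 6.46 ± 0.37, adjusted p = 2.8e-09 against macrophages; 6.36 ± 0.24, adjusted p = 6.3e-12 against B cells). It was detected in 122 of 159 dendritic cells and 5 of 61 macrophages. With each cell thinned to 2000 UMIs the expected share of cells with a UMI was 64.2 ± 14.9% in dendritic cells and 2.08 to 2.16% in each of the other populations.

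Ffar2 (chr7:30818348-30823775, minus strand), a receptor for short-chain fatty acids, measured 85.5, 119 and 143 CPM and was at least 18.2-fold higher than in macrophages (adjusted p = 9.6e-06), with UMIs in 64 dendritic cells. Adam23, a membrane protein of the disintegrin family that lacks protease activity, measured 97.2, 138 and 132 in 88 cells (at least 19-fold higher, adjusted p = 0.000103). Cacna1s, the pore of the skeletal muscle L-type calcium channel, measured 87.9, 93.3 and 119.8 in 85 cells (at least 16.1-fold higher, adjusted p = 0.00033). These genes were found in many cells of every library, Ffar2 in 22 of 85, 17 of 27 and 25 of 47 cells of replicates 1, 2 and 3. Ffar2 had no UMI in the Xcr1/Clec9a cells described below. Serpinb1a, an inhibitor of neutrophil serine proteases, varied more across libraries: it measured 45.7, 264 and 37, came from 22 cells with 22% of its UMIs in one of them, and stood at 113 in B cells. Ucp1, the uncoupling protein known from brown fat, measured 59.8, 95.7 and 25.1 in 26 cells (at least 8.95-fold higher, adjusted p = 0.0016; 0.14 with DESeq2). Cd7 (59.8, 114 and 39.9), a surface protein of T and NK cells, and Ifitm6 (57.4, 53.7 and 62.1), of an interferon-induced membrane family, were at least 10.4-fold and at least 9.36-fold higher, and T cells held Cd7 at 65.5. Cd7 was not called against macrophages chosen by C1qa and C1qb alone (adjusted p = 0.22). Arap2 was higher than in macrophages (a pooled ratio of 79.6, 95% counting interval 14.2 to 3153) and lower than in B cells (log2 fold change -0.90 ± 0.22, adjusted p = 0.0034).

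The largest fitted falls were in chemokine genes and genes of tissue macrophages, with interferon beta. The 10 were Pf4, Ccl12, Ifnb1, Mrc1, Trem2, Plau, Ccl4, Axl, Ccl7 and Cxcl14. The chemokine Ccl4 measured 15489.8, 4223 and 8388 CPM in macrophages, while the dendritic cells held 4 UMIs in all (log2 fold change -12.20 ± 0.79, adjusted p = 1.1e-08). Ccl7 stood at 1362, 1939 and 2313 in macrophages and at 1 UMI in dendritic cells. Pf4, a platelet chemokine that tissue macrophages also make, had no UMI in dendritic cells and was at least 395-fold higher in macrophages, and Mrc1, the mannose receptor, at least 162-fold. Ifnb1, interferon beta, had no UMI in 159 dendritic cells against 514, 291 and 104 in macrophages (at least 191-fold, adjusted p = 0.051 with DESeq2), where 20 of 61 cells held it. Trem2 (at least 145-fold), Plau (at least 138-fold), Axl (at least 104-fold), Ccl12 (at least 230.0-fold) and Cxcl14 (at least 71.7-fold, adjusted p = 0.104 with DESeq2) were likewise at 0 in dendritic cells.

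Stress genes moved with this comparison. All but 1 of the 12 dissociation and stress genes were lower in dendritic cells, and none higher. Their sum was 2649 ± 723 CPM against 8293 ± 4781 in macrophages and 2391 ± 256 in B cells, and Hspa1a measured 21.1, 0 and 0 against 581, 10.8 and 1173. The insulin genes of beta cells were also lower, Ins1 at 14.2 ± 14.7 against 215 ± 329 (adjusted p = 0.012) and Ins2 at 28.9 ± 25.9 against 321 ± 480.1 (adjusted p = 0.017). A single macrophage held 93.3% of the Ins1 UMIs and 92% of the Ins2 UMIs of its population, and UMIs were found in 24 of 159 dendritic cells and 7 of 61 macrophages for Ins1 and in 35 and 14 for Ins2. In B cells the levels were 7.48 and 17.1. Without replicate 3 neither insulin gene passed (adjusted p = 0.54 and 0.57), nor did either with DESeq2 (0.26 and 0.15). The part of stress genes in the differences from macrophages was not tested.

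A set of 387 genes was higher in dendritic cells than in both macrophages and B cells. Klrd1 (CD94), a lectin receptor subunit of NK cells, was among them at 107, 138 and 198 CPM in 88 cells, with 1 UMI in macrophages (a pooled ratio of 70.0, 95% counting interval 12.5 to 2773) and 1.93 CPM in B cells (log2 fold change 6.25 ± 0.26, adjusted p = 1.2e-11). T cells held it at 74.7. In the list of 11 NK and innate lymphoid markers only Klrd1 was high enough to be tested, and Ncr1, Il1rl1 and Il23r had no UMI in dendritic cells. Klrk1 (228 CPM) and Klri2 (25.2 CPM), which that list does not hold, were also among the 387 genes. Klrd1 and Klri2, like Adam23, Ffar2 and Ifitm6 of the same set, entered the test through the dendritic cells alone. Such genes could only be called higher, and their number in the set was not counted. Tbc1d4, a regulator of glucose transporter traffic that is also a marker of mature dendritic cells, measured 1011, 1043 and 1603 in 148 cells and 39.1 ± 67.7 in macrophages (log2 fold change 4.87 ± 0.57, adjusted p = 9.6e-06). Timd4, which binds phosphatidylserine on dying cells, measured 91.4, 217 and 277 in 83 cells against 49.8 ± 59.5 in macrophages (2.34 ± 0.54, adjusted p = 0.0043; 0.41 with DESeq2), where 1 cell held 58.8% of its UMIs.

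The promoters of 3 of these genes and of Isg15 are shown because each held a match to a motif of factors that dendritic cells use. RefSeq promoters (GRCm38.p6, 250 bases before to 50 after each start) were searched on both strands for the NF-kappa-B motif (GGGA, any 1 base, TTTCC), the interferon regulatory factor (IRF) element (GAAA, any 2 bases, GAAA) and the ETS-IRF composite (GGAA, any 2 bases, GAAA), which PU.1 binds together with IRF4 or IRF8. The last 2 motifs can overlap in a promoter. The composite was in 2.72% of all 32851 promoters, in 2.69% of the 6964 promoters of tested genes and in 5.91% of 406 promoters of the 304 matched genes higher than in both other populations. It was in 2.76% of the 907 promoters of genes lower than in macrophages. The IRF element was in 3.44% of all promoters, 3.62% of those of tested genes, 5.42% of the 406 and 7.39% of the 907. The kappa-B motif was in 0.411% of all promoters and 0.493% of the 406, and 0.772% of the 907. The upstream 250 bases of Ffar2 (chr7:30821649-30821898, minus strand, 1 of 4 promoters listed for it), Ifitm6 (chr7:141016893-141017142, minus strand), Timd4 (chr11:46810549-46810798, plus strand) and Isg15 (chr4:156200819-156201068, minus strand) are printed 5′ to 3′ along the gene, with the matches in capitals. The composite began 140 bases before the start of Ffar2, 241 and 199 before that of Ifitm6 and 72 before that of Timd4, and 3 overlapping IRF elements began 78, 72 and 66 bases before that of Isg15. A match describes letters and is neither a site nor a cause.
Ffar2: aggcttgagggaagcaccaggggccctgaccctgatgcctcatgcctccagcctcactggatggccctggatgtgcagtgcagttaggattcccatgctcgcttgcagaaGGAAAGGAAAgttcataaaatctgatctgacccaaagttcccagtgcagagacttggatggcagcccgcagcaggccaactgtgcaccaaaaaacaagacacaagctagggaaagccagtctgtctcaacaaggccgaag
Ifitm6: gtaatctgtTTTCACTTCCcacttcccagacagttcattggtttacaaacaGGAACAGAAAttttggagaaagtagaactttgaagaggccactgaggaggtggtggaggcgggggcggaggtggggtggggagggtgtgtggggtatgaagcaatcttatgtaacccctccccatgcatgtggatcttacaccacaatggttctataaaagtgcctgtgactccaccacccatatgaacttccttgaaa
Timd4: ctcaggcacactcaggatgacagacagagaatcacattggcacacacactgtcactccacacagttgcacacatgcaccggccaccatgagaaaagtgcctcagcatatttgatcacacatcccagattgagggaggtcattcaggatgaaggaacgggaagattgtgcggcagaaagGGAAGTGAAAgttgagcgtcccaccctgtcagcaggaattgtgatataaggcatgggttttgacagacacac
Isg15: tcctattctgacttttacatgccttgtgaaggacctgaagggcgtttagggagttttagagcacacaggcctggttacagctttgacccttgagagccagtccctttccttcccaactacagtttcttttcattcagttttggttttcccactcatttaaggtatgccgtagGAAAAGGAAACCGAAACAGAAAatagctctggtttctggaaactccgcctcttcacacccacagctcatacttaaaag

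The study asked whether the ligand of the inhibitory receptor TIGIT is present in the islets, and it blocked PD-L1, a ligand of PD1, with an antibody. Pvr (chr7:19903578-19921160, minus strand) encodes CD155, the ligand shared by TIGIT and CD226. It measured 19.9, 32.7 and 29.6 CPM in dendritic cells, 7.05, 4.35 and 5.18 in B cells and 72.6, 10.8 and 28.5 in macrophages. Each dendritic cell library lay above each B-cell library (log2 fold change 2.31 ± 0.42, adjusted p = 0.00024), while 24.5% of all tested genes were called higher and 20% lower than in B cells. Against macrophages the libraries overlapped and the gene did not pass the test (-0.61 ± 0.54, adjusted p = 0.47). The values rest on 51 UMIs in 43 dendritic cells.

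Shares of cells with a Pvr UMI depended on depth. Unthinned, they were 17.6%, 40.7% and 36.2% of dendritic cells in replicates 1, 2 and 3, against 3.26% of B cells and 5.87% of T cells. Thinned to 2000 UMIs, they were 3.78%, 6.01% and 5.67%, or 5.15 ± 1.20% (SD, n = 3), against 1.08% in B cells, 2.12% in T cells and 6.43% in macrophages. The difference from B cells was 4.07 ± 1.58 percentage points and had this direction in 3 of 3 libraries (two-sided exact permutation by sign flips, p = 0.25, the smallest that 3 libraries allow). The difference from macrophages was -1.27 ± 5.37 points (p = 0.75, exact) and changed direction without replicate 1, at 1.62, and without thinning, at 13.8. Nectin2 (chr7:19716644-19750483, minus strand), another TIGIT ligand, had 1 UMI in the dendritic cells and was too low for the fit. Its thinned share differed by 0.0197 percentage points from B cells and -0.444 from macrophages (p = 1 for both, exact permutation). Thinning left out 1 dendritic cell under 2000 UMIs.

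Cd274 (chr19:29367455-29388095, plus strand), which encodes PD-L1, was higher in dendritic cells than in B cells and not distinguished from macrophages. It measured 139, 254 and 268 CPM in dendritic cells, 34.5, 43 and 41.6 in B cells (log2 fold change 2.46 ± 0.19, adjusted p = 1.3e-08) and 162, 291 and 271 in macrophages (-0.17 ± 0.21, adjusted p = 0.64). UMIs were found in 51.8%, 85.2% and 87.2% of dendritic cells. At 2000 UMIs the mean share was 32.1%, against 31.2% of macrophages, 7.08% of B cells and 10.5% of T cells, and the difference from B cells was 25.1 ± 8.58 points, upward in 3 of 3 libraries (p = 0.25, exact permutation). Pdcd1lg2 (chr19:29410919-29471161, plus strand), which encodes PD-L2, measured 21.1, 18.7 and 37 against 1 UMI in all macrophages (a pooled ratio of 12.6, 95% counting interval 2.16 to 506; adjusted p = 0.012). This call was lost without replicate 3 (adjusted p = 0.25), and with macrophages chosen by C1qa and C1qb alone (adjusted p = 0.41). In B cells Pdcd1lg2 stood at 20.9, 12.2 and 20.2 (adjusted p = 0.18), with thinned shares of 4.36% of dendritic cells and 3.38% of B cells.

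Of 15 tested costimulatory and checkpoint genes, most of them ligands but with receptors such as Havcr2 and Btla among them, 7 were higher than in macrophages, 3 lower and 5 not called (median log2 fold change 0.41, against 0.11 over all tested genes), and 10 were higher than in B cells and none lower. Over all tested genes 10.7% were higher and 12.4% lower than in macrophages, and 24.5% higher and 20% lower than in B cells. Havcr2 (chr11:46454935-46481255, plus strand), which encodes the inhibitory receptor TIM-3, was detected in 145 of 159 cells and measured 553, 756 and 733 CPM against 290.3, 388 and 228 in macrophages (log2 fold change 1.17 ± 0.26, adjusted p = 0.0031) and 1.48, 0.512 and 1.68 in B cells. At 2000 UMIs it was found in 63.7 ± 3.97% of dendritic cells, 35.9% of macrophages, 2.77% of T cells and 0.0805% of B cells, the last a level that free RNA could set. Nectin1, a cell adhesion molecule of the nectin family, measured 112, 224 and 188 against 22.3, 21.5 and 28.5 (2.72 ± 0.34, adjusted p = 1.7e-05). Cd80 (95.6 ± 25.3 against 22.8 ± 17.6, adjusted p = 0.00102) and Fgl2, a secreted suppressor of T cells (341 ± 37.3 against 139.7 ± 37.6, adjusted p = 0.00061), were also higher. Cd86, the other ligand of CD28, did not pass against macrophages (568 ± 82.5 against 416 ± 58.4, adjusted p = 0.16) and was higher than in B cells (264, adjusted p = 4.9e-05). Cd200, whose receptor restrains myeloid cells, measured 68, 154 and 126, had 1 UMI in macrophages, and stood at 113 in T cells. Its call was lost against macrophages chosen by C1qa and C1qb alone (adjusted p = 0.076). Cd40, Lgals9 and Vsir were lower than in macrophages, Cd40 at 84.4 ± 12.1 against 269 ± 78.5 (adjusted p = 0.00054), and Lgals9 was not called without replicate 3 (adjusted p = 0.095).

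**Figure D3:**
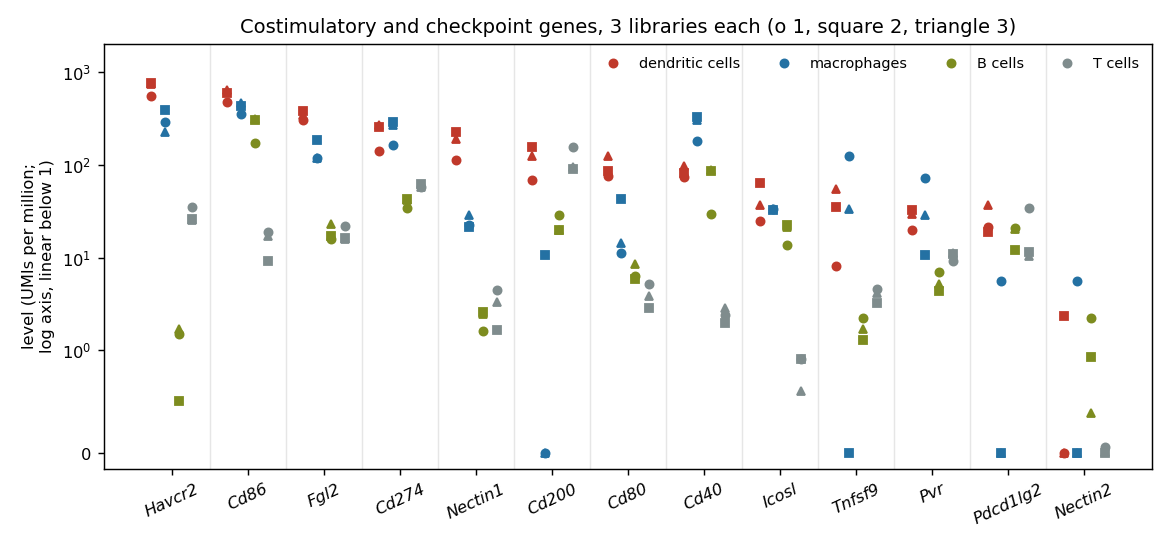
Level of 13 costimulatory and checkpoint genes (CPM, log axis, linear below 1) in dendritic cells, macrophages, B cells and T cells, 1 point per library. Havcr2, Fgl2, Nectin1 and Cd80 lie above macrophages in all 3 libraries, while Cd274 and Pvr overlap with macrophages and lie above B cells.

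For antigen presentation, the classical class II genes did not differ detectably from macrophages and several accessory chains did. H2-Ab1 measured 12088 ± 1386 CPM in dendritic cells and 10375 ± 972 in macrophages (log2 fold change 0.17 ± 0.17, adjusted p = 0.52), and both lay above B cells (5213). H2-Ob and H2-Oa, the chains of H2-O, which restrains peptide loading, were higher: H2-Ob measured 141, 175 and 136 against 1 UMI in macrophages (a pooled ratio of 70.7, 95% counting interval 12.6 to 2803), and H2-Oa 216, 240.3 and 309 against 44.7, 21.5 and 0 (3.56 ± 0.49, adjusted p = 4.3e-05). H2-DMb2, a chain of the loading factor H2-M, measured 322, 471 and 520.5 against 50.2, 96.9 and 38 (2.92 ± 0.28, adjusted p = 1.3e-06), and H2-Eb2 was the other class II gene called higher. The proteases Ctsl, Lgmn and Ctss, which cut antigen and invariant chain, and H2-DMb1 were lower. That made 4 higher and 4 lower of 15 tested (median -0.04), against 10.7% and 12.4% of all tested genes.

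Over all tested genes 10.7% were higher and 12.4% lower than in macrophages. In the class I pathway 4 of 19 tested genes were higher than in macrophages and none lower. They were the proteasome activator subunits Psme1 (743, 826 and 744 against 352, 431 and 299 CPM, log2 fold change 1.08 ± 0.19, adjusted p = 0.00044) and Psme2, and the immunoproteasome subunits Psmb9 (535 ± 99.5 against 253 ± 42, adjusted p = 0.0018) and Psmb8. Psme2 was not called without replicate 1 or 3 (adjusted p = 0.053 and 0.15), nor Psmb8 without any one of the libraries (adjusted p = 0.052 to 0.13). The peptide transporter gene Tap1 (adjusted p = 0.605) and B2m (adjusted p = 0.78) did not pass. Against B cells 15 of the 19 were higher, and 24.5% of all tested genes were. H2-M2, a nonclassical class I gene, was the largest fitted rise over B cells, at 229.6, 257 and 281 against 3 UMIs in all B cells, and did not differ detectably from macrophages (229, 496 and 171, adjusted p = 0.83). Its UMIs came from 36 dendritic cells, one of which held 13.7%.

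Chemokine ligands were largely lower than in macrophages, beside 12.4% lower over all tested genes. None of 16 tested was higher and 14 were lower (median log2 fold change -6.75), and the list summed to 2548 ± 917 CPM against 33822 ± 3122. Against B cells 9 were higher and 1 lower, beside 24.5% and 20% of all tested genes. Cxcl9, a ligand of CXCR3 on activated T cells, measured 1438, 716 and 560.4 in 86 cells, and fell short of the threshold against macrophages (1155, 3361 and 1795, adjusted p = 0.053). Cxcl16, the ligand of CXCR6, measured 432, 469 and 581 against 748, 1303 and 1168 (-1.12 ± 0.28, adjusted p = 0.0077). Cxcl10, another CXCR3 ligand, measured 82, 289 and 699 against 2517, 6571 and 4769 (-4.08 ± 0.32, adjusted p = 1.1e-07). Ccl5 measured 353, 229 and 1474, and 1 cell held 37.8% of its 1396 UMIs. Ccl22, a ligand of CCR4 made by mature dendritic cells, measured 48, 2.33 and 22.2 against 44.7, 21.5 and 28.5 (adjusted p = 0.75), with 47.4% of its UMIs in 1 cell.

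Of 10 tested chemokine receptors, Gpr183, the oxysterol receptor that positions dendritic cells in lymphoid tissue (299, 308 and 550.1 against 134, 53.9 and 123 CPM, log2 fold change 1.76 ± 0.29, adjusted p = 0.00022), and Ccr6 (adjusted p = 0.00095) were higher than in macrophages, and Cx3cr1, Ccrl2, Cxcr4 and Ccr2 were lower, the last not without replicate 3 (adjusted p = 0.14). Cytokine genes were also mostly lower, with 9 of 12 lower and none higher (median -4.22), against 12.4% lower and 10.7% higher over all tested genes. Tnf measured 14.1, 9.33 and 13.3 against 1155, 636 and 1520.0 (-6.49 ± 0.29, adjusted p = 1.7e-10), and Il10 had no UMI in dendritic cells. Il1b was not among the genes called lower. It measured 1091, 737 and 1652 in 114 cells, 759, 926 and 575 in macrophages (adjusted p = 0.197) and 64.4 ± 23.5 in B cells (log2 fold change 4.21 ± 0.31, adjusted p = 6.8e-09). Il12b, the p40 chain of interleukin-12 and interleukin-23, was near the limit of detection with 13 UMIs.

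Cytokine receptors went both ways, with 6 of 24 higher and 9 lower (median -0.10), against 10.7% and 12.4% of all tested genes. Beside Il1r2, the higher genes were Ifngr1, the ligand-binding chain of the interferon-gamma receptor (527, 476 and 637 against 173, 118 and 52.2 CPM, log2 fold change 2.30 ± 0.30, adjusted p = 2.9e-05), Csf2rb, the shared chain of the GM-CSF receptor (281, 548 and 636 against 123, 355 and 109, 1.41 ± 0.29, adjusted p = 0.0019), Il21r, Il2rg and Il12rb2. The macrophage growth factor receptor Csf1r was lower (118 ± 59.4 against 411 ± 80.5, adjusted p = 0.00023), as were both tested chains of the TGF-beta receptor. Against B cells 17 of the 24 were higher and 2 lower, beside 24.5% and 20% of all tested genes.

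Innate sensors and interferon-stimulated genes were mostly lower than in macrophages. Over all tested genes 12.4% were lower than in macrophages and 24.5% higher than in B cells. Of 14 tested pattern recognition receptors 9 were lower and none higher, among them the RNA sensor Ifih1 (15.2, 25.7 and 41.4 against 904, 700.2 and 731 CPM, log2 fold change -4.91 ± 0.29, adjusted p = 3.2e-09), Tlr2 (adjusted p = 6.98e-09) and Cd14 (adjusted p = 8.4e-08). Tlr7 had no UMI. Of 14 type I interferon response genes 10 were lower (median -1.71), while 13 were higher than in B cells. Isg15, whose promoter is shown above, measured 71.5, 439 and 327 in dendritic cells and 1301, 1982 and 1610.2 in macrophages (-2.95 ± 0.36, adjusted p = 1.4e-05), and Rsad2 7.03, 72.3 and 94.6 against 2116, 2855 and 3553 (-6.06 ± 0.45, adjusted p = 6.2e-08). Both were lowest in replicate 1 among the dendritic cell libraries. Of 14 interferon-gamma response genes 8 were lower than in macrophages and none higher, and 7 were higher than in B cells.

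Among 35 tested transcription factors 6 were higher than in macrophages and 12 lower, against 10.7% and 12.4% of all tested genes. Runx3, a Runt factor of dendritic cells and lymphocytes (546, 376 and 337 against 184, 140.0 and 85.5 CPM, log2 fold change 1.61 ± 0.23, adjusted p = 7.2e-05), Relb, the NF-kappa-B subunit of dendritic cell development and maturation (182, 413 and 494 against 89.3, 129 and 138, 1.52 ± 0.30, adjusted p = 0.0012), Zeb1, Stat3, Ahr and Zfp366 (DC-SCRIPT) were higher. Cebpb, a bZIP factor of myeloid cells, was lower and measured 32.1 ± 17.2 against 866 ± 115 (adjusted p = 8.8e-10). Spi1 (PU.1), shared by both cell types, did not pass (adjusted p = 0.77). Of 10 tested cell cycle genes, H2afz was higher and Pcna lower, which is near the shares over all tested genes. Mki67 did not pass (20.3 ± 17 against 44.1 ± 30.7, adjusted p = 0.15).

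**Figure D4:**
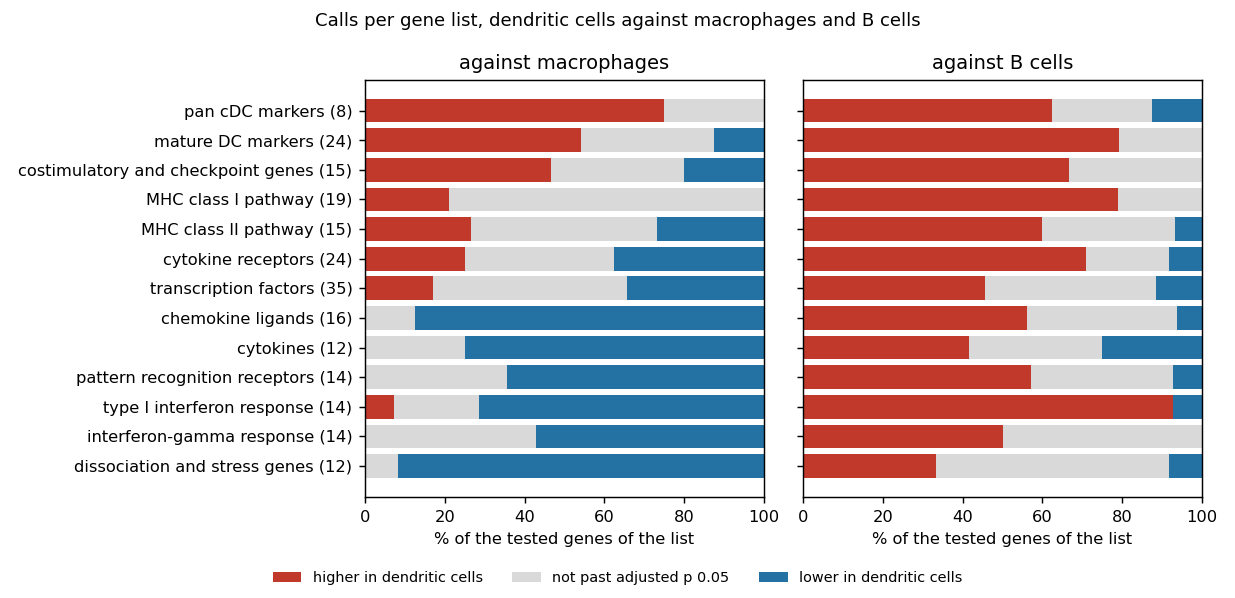
Share of the tested genes of 13 lists (percent, number of tested genes in brackets) that were higher, lower or not past an adjusted p of 0.05 in dendritic cells, against macrophages on the left and B cells on the right. Among macrophage contrasts, chemokine ligands have 14 of 16 genes lower and the general conventional dendritic cell markers 6 of 8 higher; over all 6766 genes 10.7% were higher and 12.4% lower.

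Against B cells, 3012 of 6766 genes differed (44.5%), 1661 higher and 1351 lower in dendritic cells. The 5 largest fitted rises were H2-M2, Anxa3, Timd4, Dcstamp and Havcr2. Anxa3, an annexin, measured 68, 49 and 68 CPM and had no UMI in B cells (at least 586-fold higher), and Dcstamp, a fusion protein named after dendritic cells, measured 73.8, 77 and 85.8 against 2 UMIs in B cells. Neither differed detectably from macrophages (adjusted p = 0.53 and 0.83). The 5 largest fitted falls were Fcmr, the IgM receptor (220.5 in B cells), the light chain genes Iglc3 (203) and Iglv1 (128), Fcrla (149.7) and the lymphoid factor Ikzf3 (70.7), and the dendritic cells had no UMI of any. DESeq2 did not call Iglv1 (adjusted p = 0.071) or Ikzf3 (adjusted p = 0.096). The light chain genes have close copies, and reads that match several are not counted.

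The dendritic cells were divided by raw UMIs into 107 cells with at least 2 UMIs of Ccr7 and Fscn1 together (51, 20 and 36 in replicates 1, 2 and 3, or 60.0%, 74.1% and 76.6% of the dendritic cells), 13 other cells with Xcr1 or Clec9a (11, 1 and 1), 9 with Cd209a (6, 2 and 1), 1 with both and 29 with neither. Of the 107 cells 19 also held Xcr1 or Clec9a and 8 held Cd209a. Fscn1 served both in the gate and in this division, so that a cell admitted through it alone falls among the 107. With Fscn1 left out of the gate the class held 34 of 68, 16 of 23 and 26 of 37 cells. The small classes had fewer than 10 cells in at least 1 library and were not tested. The 107 cells had a median of 12134 UMIs and the other 52 a median of 10256. What follows describes the 107 Ccr7/Fscn1 cells against the other 52, library by library, with ratios of pooled levels whose intervals cover counting error only. Among 8256 genes with 10 or more UMIs, 16.2% were higher and 16.1% lower in all 3 libraries.

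Maturation genes moved with Ccr7 and Fscn1. Of 29 mature dendritic cell markers with 10 or more UMIs, 24 were higher in the Ccr7/Fscn1 cells in all 3 libraries and none lower (median ratio 2.91). Cd200 measured 114, 212 and 167 CPM in these cells and had no UMI in the others, and Socs2, an inhibitor of cytokine signalling, measured 49.1, 41.8 and 84.6 with none in the others. Both were confined to part of the class, as Cd200 was found in 30 of the 107 cells and Socs2 in 21. Il4i1, an amino acid oxidase that restrains T cells, measured 284, 350.1 and 372 in 48 cells against 14.5, 0 and 35.7 (ratio 19.1, 95% counting interval 10.5 to 38.4). Cd63, a tetraspanin of late endosomes, measured 192, 247 and 435 against 20.4, 17.1 and 17.9 (ratio 15.6, 95% counting interval 8.84 to 30.5), Marcksl1 396, 482 and 403 against 72.7, 34.1 and 71.5 (ratio 6.43, 95% counting interval 4.68 to 9.06) and Relb 232, 529.9 and 570.4 against 108, 102 and 262 (ratio 2.91, 95% counting interval 2.34 to 3.67). These markers are known companions of Ccr7, which chose the cells, so the counts describe the split.

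Of 17 costimulatory and checkpoint genes with 10 or more UMIs, 9 were higher in the Ccr7/Fscn1 cells in all 3 libraries and 3 lower (median ratio 1.43). Summed over the whole list, the Ccr7/Fscn1 cells stood at 2543 CPM. Of the other cells, those with Xcr1 or Clec9a stood at 1000, those with Cd209a at 2986 and those with neither at 2574. Cd274 had no UMI in the Xcr1/Clec9a cells. The part of this mix of cells in the ratios was not tested. Cd200, given above, and Tnfsf4, the ligand of OX40, with 22 UMIs in 12 cells, had no UMI in the other cells. Cd274 measured 177, 269.8 and 285 CPM in the Ccr7/Fscn1 cells against 84.3, 213 and 214 (ratio 1.68, 95% counting interval 1.32 to 2.14), and Cd40 98.1, 99.6 and 112 against 37.8, 34.1 and 53.6 (ratio 2.51, 95% counting interval 1.64 to 3.98). Pvr measured 21.6, 38.5 and 33.4 against 17.5, 17.1 and 17.9, higher in 3 of 3 libraries with an interval that includes 1 (ratio 1.72, 95% counting interval 0.866 to 3.72), and rested on 40 and 11 UMIs. Havcr2 (ratio 0.907, 95% counting interval 0.807 to 1.02), lower in 3 of 3 libraries, and Nectin1 (ratio 1.2, 95% counting interval 0.939 to 1.55) had intervals that include 1. Fgl2 was lower in all 3 libraries, at 259, 305 and 271 against 369, 572 and 548 (ratio 0.604, 95% counting interval 0.516 to 0.707). Among secreted factors, Il1b (ratio 1.87, 95% counting interval 1.69 to 2.07) and Cxcl16 (ratio 2.37, 95% counting interval 2 to 2.83) were higher in all 3 libraries. Ccl5 measured 575, 308 and 1949 against 23.3, 17.1 and 35.7, with the single cell named above among the Ccr7/Fscn1 cells. Mgl2, a lectin of cDC2 and macrophages, had 46 UMIs in 12 Ccr7/Fscn1 cells, 26.1% of them in 1 cell, and none in the others.

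Several cDC1 genes were lower in the Ccr7/Fscn1 cells. Of 16 cDC1 markers 7 were lower in the Ccr7/Fscn1 cells in all 3 libraries and 3 higher (median ratio 0.765). Cells that passed the gate only through Fscn1 fall in this class and hold fewer than 2 UMIs of the other gate markers together. The gate thus bears on this contrast, and the ratios were not computed without those cells. The other cells also include those chosen for Xcr1 or Clec9a. Without its gate genes the list summed to 1822 CPM in the Ccr7/Fscn1 cells, 4850 in the Xcr1/Clec9a cells and 2369 in the Cd209a cells. In the cells with neither it stood at 950, below the Ccr7/Fscn1 cells. Irf8 measured 341, 148 and 90.5 CPM against 558, 341 and 125 (ratio 0.497, 95% counting interval 0.417 to 0.593), Naaa 143, 32.1 and 0 against 250.1, 205 and 23.8 (ratio 0.344, 95% counting interval 0.256 to 0.461) and Wdfy4 196, 103 and 98.3 against 241, 205 and 226 (ratio 0.594, 95% counting interval 0.475 to 0.744). Batf3 (ratio 1.09, 95% counting interval 0.697 to 1.75) and Cadm1 (ratio 1.2, 95% counting interval 0.752 to 1.97) had intervals that include 1. In both classes Irf8 was highest in replicate 1 and lowest in replicate 3. Replicate 1 gave 509669 of the 1329430 UMIs of the Ccr7/Fscn1 cells and 343836 of the 628941 of the other cells. All pooled ratios of the Ccr7/Fscn1 cells over the other cells, those of the paragraphs above included, therefore also carry differences between libraries. Their intervals do not cover these. Examples are Irf8, Naaa and Cd274, the last being lowest in replicate 1 in both classes. Spi1 and Napsa were higher in 2 of 3 libraries and Flt3, a gate gene, likewise.

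**Figure D5:**
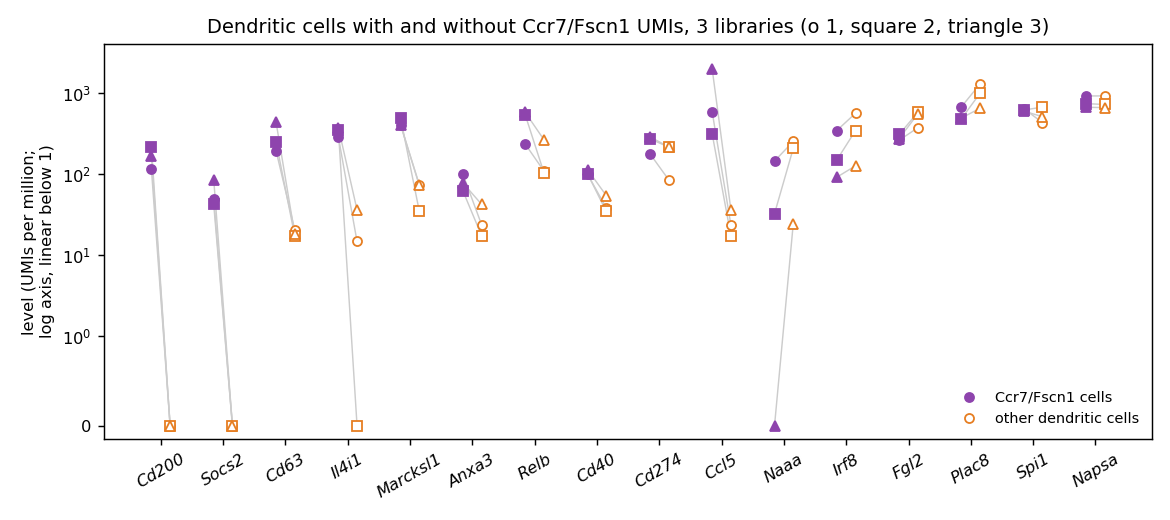
Level of 16 genes (CPM, log axis, linear below 1) in the 107 Ccr7/Fscn1 dendritic cells (filled) and the other 52 (open), 1 point per library, with lines joining the same library. Cd200 and Socs2 have no UMI in the other cells, Irf8, Naaa, Fgl2 and Plac8 are lower in the Ccr7/Fscn1 cells in all 3 libraries, and Spi1 and Napsa have no common direction.

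Between the 13 Xcr1/Clec9a cells and the 9 Cd209a cells, pooled over libraries, several lineage genes differed. In CPM, Naaa stood at 495 against 63.7, Irf8 at 912 against 510.0, Rab7b at 375 against 106 and Ppt1, a lysosomal thioesterase of cDC1, at 630.3 against 138. Sirpa, the cDC2 receptor, had no UMI in the Xcr1/Clec9a cells and stood at 95.6 in the Cd209a cells. Il1r2 was 156 against 1179, Tbc1d4 130.2 against 1031, Il7r 10.4 against 223 and H2-Oa 57.3 against 361. Cd274 had no UMI among the 191965 UMIs of the Xcr1/Clec9a cells (upper 95% Poisson limit 19.2) and 26 among the 94121 UMIs of the Cd209a cells (276, interval 180.4 to 405). The 29 cells with none of these receptors held Cd274 at 186, Il1r2 at 1179 and Irf8 at 90.2. Replicate 1 held 11 of the 13 Xcr1/Clec9a cells and 6 of the 9 Cd209a cells. Within it Irf8 did not separate them, at 849 against 856 CPM, and Naaa stood at 496 against 74.5, Ppt1 at 632 against 112 and Il1r2 at 190.2 against 1415. Cd274 had no UMI in the first class and 15 UMIs in the second in that library. The other libraries had 1 or 2 cells of each class.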

How the data were processed

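Islet CD45+ cells from wild-type NOD mice were sequenced as 3 libraries on the 10x Genomics platform (3′ chemistry). The authors aligned reads to mm10 (GRCm38) with Cell Ranger 6.0.1, and the deposited matrices hold its UMI counts per gene and cell barcode, not normalized. They include cells above the study's limit of 6000 UMIs, and a simulated-doublet score was used only in an alternative.

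Members, gene lists and comparisons were chosen with earlier results of these data known. UMIs of dendritic cells, macrophages and B cells were summed per library, giving 9 sums that were scaled to CPM for display. Genes read by the gates stayed in library sizes and were not tested. The sums were fitted with edgeR 4.0.16 in R 4.3.3 (TMM factors, filterByExpr, library as a block, glmQLFit and glmQLFTest, 4 residual degrees of freedom), with Benjamini-Hochberg adjustment over 6766 genes and a threshold of 0.05. DESeq2 1.42.0 was an alternative. The libraries pair the populations, as each pool of mice gave all 3. Deviations correlated at 0.03 to 0.39 within libraries (9 pairs) and -0.31 to 0.11 between libraries (18 pairs). Tested on simulated data, with 200 genes shifted by 2 on the log2 scale, the fit recovered 143 between dendritic cells and macrophages and 184 between dendritic cells and B cells, with 7 and 12 false calls. All simulated sums shared a single pooled profile apart from the shifted genes, and took their spread from this same fit. They held no gene absent from a whole population, so the test does not cover such genes. A gene with no UMI in 1 population was given a bound against 3 UMIs over that population's sums. Shares of cells were expected values after thinning each cell to 2000 UMIs, and were compared over 3 libraries by exact sign flips. Intervals of shares and pooled counts were exact (95%) and cover counting error only.

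Named genes were the gate genes, the 4 TIGIT and PD1 ligands, and the called genes at 50 CPM or more that moved one way in 3 of 3 libraries. Of the last, the 10 largest fitted folds in each direction were taken against macrophages and the 5 largest against B cells. Up to 4 members of each list by adjusted p, and members with a role the list is known for, were added. Other genes named (Klrd1, Klrk1, Klri2, Tbc1d4, Plac8, Ms4a4c, Tnfsf4, Marcksl1, Mgl2, Il12b and those of the subset descriptions) were chosen after their values were seen. Gene coordinates are those of GENCODE M21 (GRCm38). Subset contrasts were not tested, since a minimum of 10 cells per library had been set for them. No such minimum was set for the populations, and the macrophage sum of replicate 2 holds 8 cells. Some genes of the lists are not reported here by name.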

Additional observations from a re-analysis of the deposited data

How the results depend on the processing

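The study's own cell limits left 2 of the 159 dendritic cells, so neither fits nor shares could be computed under them. A marker sum of at least 3 left 118 cells, leaving Fscn1 out of the sum 128, allowing no C1qa or C1qb UMI 158 and removing high doublet scores 158. Against macrophages, the counts of 723 higher and 841 lower genes became 536 and 860 with DESeq2, 647 and 885 with RLE factors and 992 and 866 without a filter on low counts. Leaving out each library gave 352 to 547 higher genes (352 without replicate 3) and 589 to 789 lower. Against B cells, 1661 and 1351 became 1466 and 1146 with DESeq2, 1588 and 1476 with RLE factors and 2075 and 1883 without the filter, with 1333 to 1448 and 975 to 1186 when each library was left out. An alternative chosen after seeing the data left out dendritic cells with a UMI of any of a set of B-cell and T-cell genes. It kept 114 cells and called 556 and 714 genes against macrophages and 1253 and 1022 against B cells.

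Without the replicate block the counts were 601 and 754 against macrophages and 1553 and 1218 against B cells, and 6 calls of named genes were lost, namely Psmb8 and Ighm against macrophages and H2-Ob, Tgfbr1, Gbp5 and Atf3 against B cells.

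Shares of cells thinned to 2000 UMIs (percentage points) changed direction in several cases. Dendritic cells minus macrophages for Pvr was 13.8 without thinning and -3.68 to 1.62 when each library was left out. For Nectin2 it was 0.0851 without thinning and -0.889 to 0.223, and for Cd274 -1.99 to 5.19. Dendritic cells minus B cells was -0.142 to 0.158 for Nectin2 and -0.0220 to 1.74 for Pdcd1lg2. Without thinning the Pvr difference from B cells was 28.3. The Pvr and Cd274 differences from B cells and the Pdcd1lg2 difference from macrophages kept their direction under every alternative run. No p could pass 0.05 with 3 libraries.

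Over 236 results of named genes and 13 alternatives, 2921 of 3022 values kept their direction and their side of the threshold, 65 lost the call, 29 gained one and 7 reversed. With macrophages chosen by C1qa and C1qb alone, the log2 fold changes of Mzb1 (-6.28), Ly6d (-4.04), Iglc2 (-4.87), Cd2 (-4.04), Ms4a4b (-2.75) and Trbc2 (-4.48) against macrophages turned negative, and this gate admits cells with T-cell and B-cell genes. Cx3cr1 against B cells was -2.32 without the cells holding lymphocyte genes. DESeq2 did not call Ucp1, Ifnb1, Cxcl14, Timd4, Ins1 and Ins2 against macrophages or Iglv1 and Ikzf3 against B cells, and Cd7 and Cd200 were not called against macrophages chosen by C1qa and C1qb alone. The causes were not tested. The subset contrasts and their alternatives were not run. The 61 macrophages and their 482511 UMIs limit every comparison with them.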
